A study of Bos taurus with 2 samples.

Results

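The 9 genes described here encode the synaptonemal complex and the HORMA domain proteins of the meiotic chromosome axis. They are SYCP1, SYCP2, SYCP3, SYCE1, SYCE2, SYCE3, TEX12, HORMAD1 and HORMAD2, chosen by gene symbol from the 24616 genes listed in the deposited tables. Each symbol was found in 1 row of both tables, and all 9 had at least 10 counts over both libraries, the minimum for a gene to be counted as measured. RNA was sequenced from samples labelled as seminiferous tubules, where sperm cells are made in the testis. There was 1 sample from cattle aged 3 months and 1 from cattle aged 9 months. The number of animals behind each sample, their breed and any treatment are not stated. Both samples are described as pieces of tubule cut from removed testes and frozen. With 1 library per age there is no replicate spread, no test is possible, and every value compares these libraries and not the ages in general.

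The synaptonemal complex is a protein ladder that forms between paired homologous chromosomes in the prophase of the first meiotic division and holds them together along their length while crossovers mature. SYCP2 and SYCP3 build its lateral elements along each chromosome axis, SYCP1 spans the gap as the transverse filament, and SYCE1, SYCE2, SYCE3 and TEX12 make up the central element at the midline. HORMAD1 and HORMAD2 coat axes that have not yet paired and are taken off as the complex forms. In the testis these proteins belong to spermatocytes, the germ cells in meiosis.

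Totals were 37600534 counts at 3 months and 29782234 at 9 months. Levels are given as the deposited RPKM (counts relative to gene length and library total), the scale on which genes can be compared with each other, and as CPM (counts relative to the scaled library total). Folds are ratios of scaled counts, 9-month over 3-month, with their 95% exact counting interval in brackets. Calls of higher or lower required a difference of 2-fold or more and an interval without 1. The 18025 measured genes had a median log2 ratio of 0.02. Relative to this scaling, plain library totals raised log2 ratios by 0.45 and scaling to reference genes raised them by 0.35, while upper-quartile scaling shifted them by -0.10. Among called genes, 55.1% were higher, against 71.2% under plain totals and 67.8% under reference genes. The tubule label was checked against cell type markers, and the germ cell gene DDX4 had 755 and 14073 counts. The 8 Sertoli cell markers summed to 8762 and 2117 CPM, with 5 lower and 1 higher, and none at 0 in either library. The 6 Leydig cell markers found, whose cells lie outside the tubules, summed to 17511 and 2741 CPM, again with 5 lower and 1 higher and none at 0. In both libraries this sum exceeded that of the Sertoli cell markers, so neither library was free of RNA from outside the tubules. Markers of peritubular myoid cells summed to 226 and 599 CPM, of endothelial cells to 132 and 104 CPM, and of leukocytes to 297 and 151 CPM. Of 5 myoid markers 2 were called higher and 1 lower, of 4 endothelial markers 1 and 3, and of 5 leukocyte markers 1 and 2. Each of these lists held markers in both directions, so its sum gives no single direction for the cell type. Among all measured genes, 28.0% were called higher and 22.8% lower.

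All 9 genes were higher in the 9-month library. Their counts together were 1319 in the 3-month and 20974 in the 9-month library, or 0.00351% (95% exact binomial interval 0.00332 to 0.00370) and 0.0704% (0.0695 to 0.0714) of all counts. The summed level went from 41.0 to 602 CPM, a 14.7-fold difference [13.9 to 15.5]. Of all measured genes, 28.0% were called higher and 22.8% lower. All 9 genes were also at least 4-fold higher, as were 17.6% of measured genes, and 6 of the 9 were at least 16-fold higher, as were 8.62% of measured genes. The median log2 ratio of the 9 genes was 4.82, and their folds ran from 5.45 for TEX12 to 148 for SYCE3. In bulk tissue, fewer spermatocytes and less RNA per spermatocyte cannot be told apart, and animal, tissue piece and library cannot be told apart from age. The summed Sertoli and Leydig cell markers were lower in the 9-month library, though each of these lists also held 1 marker called higher. The part of these cells in the folds was not tested.

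**Figure D1:**
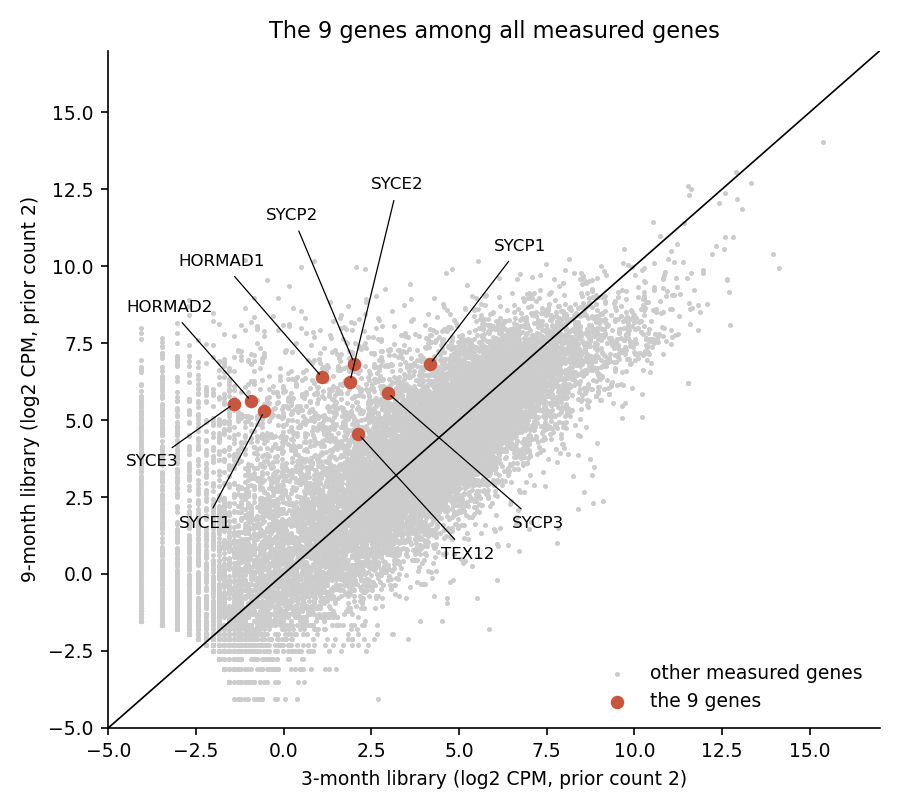
Each measured gene is a point, with its level in the 3-month library on the x axis and in the 9-month library on the y axis, both as log2 CPM with a prior count of 2; the line marks equal levels. All 9 genes, in red and named, lie above the line, with SYCP1, SYCP3 and TEX12 nearest to it.

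The 4 central element genes covered the whole range of folds. SYCE3 (ENSBTAG00000046298), a small protein needed to bring the other central element proteins to SYCP1, had 10 counts in the 3-month and 1600 in the 9-month library. Its level went from 0.673 to 136 RPKM, so that it was 148-fold higher [80.1 to 308], and 2.19% of measured genes had a larger log2 ratio. SYCE1 (ENSBTAG00000035072), which binds SYCE3 and joins the ends of the transverse filaments, had 20 and 1363 counts and was 62.9-fold higher [40.6 to 103], at 0.488 and 41.9 RPKM. SYCE2 (ENSBTAG00000016213), which together with TEX12 forms the fibres that run along the central element, had 117 and 2641 counts. Its level was 3.15 RPKM in the 3-month and 89.8 RPKM in the 9-month library, a 20.8-fold difference [17.3 to 25.3]. TEX12 (ENSBTAG00000016548) had 138 and 815 counts and went from 3.83 to 28.5 RPKM, the smallest fold of the 9 genes at 5.45 [4.54 to 6.58].

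The central element partners did not keep their proportions. The RPKM ratio of SYCE2 to TEX12 was 0.823 [0.638 to 1.06] in the 3-month library and 3.15 [2.91 to 3.41] in the 9-month library. The fold of SYCE2 was 3.82 times that of TEX12 [2.93 to 4.99], a comparison of counts within each library that no scaling enters. The ratio of SYCE1 to SYCE3 was 0.724 [0.323 to 1.73] and 0.308 [0.287 to 0.332], and the fold of SYCE3 was 2.35 times that of SYCE1 [1.04 to 5.64].

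SYCP1 (ENSBTAG00000032071), the transverse filament, had more counts in the 3-month library than any other of the 9 genes, at 575. It had 3912 counts in the 9-month library, and its level went from 4.95 to 42.5 RPKM, a 6.28-fold difference [5.75 to 6.86]. The lateral element gene SYCP3 (ENSBTAG00000002492) had 249 and 2050 counts, and its 5.64 RPKM was the highest level of the 9 genes in the 3-month library. It stood at 58.6 RPKM in the 9-month library and was 7.60-fold higher [6.66 to 8.70]. SYCP2 (ENSBTAG00000003608), which binds SYCP3 in the lateral element, had 128 and 3981 counts and was 28.7-fold higher [24.1 to 34.5], from 0.726 to 28.5 RPKM. Both lateral element genes were thus higher, but the fold of SYCP2 was 3.78 times that of SYCP3 [3.02 to 4.74]. Per length, SYCP2 stood at 0.129 times SYCP3 in the 3-month library [0.103 to 0.160] and at 0.486 times in the 9-month library [0.461 to 0.513]. SYCP1 and SYCP3 stayed closer to each other, at a ratio of 0.877 [0.754 to 1.02] and then 0.725 [0.687 to 0.765].

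The HORMA domain genes were both low in the 3-month library. HORMAD1 (ENSBTAG00000002724), which promotes the formation of DNA breaks and the pairing of homologues, had 67 and 2907 counts and was 40.0-fold higher [31.4 to 51.8], from 0.955 to 52.3 RPKM. HORMAD2 (ENSBTAG00000013877), which acts in the surveillance of unpaired axes, had 15 and 1705 counts and went from 0.336 RPKM, the lowest level of the 9 genes in that library, to 48.1 RPKM. It was 105-fold higher [63.4 to 188], and its fold was 2.62 times that of HORMAD1 [1.47 to 4.95]. Per length, HORMAD1 stood at 2.85 times HORMAD2 in the 3-month library [1.61 to 5.37] and at 1.09 times in the 9-month library [1.02 to 1.15].

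**Figure D2:**
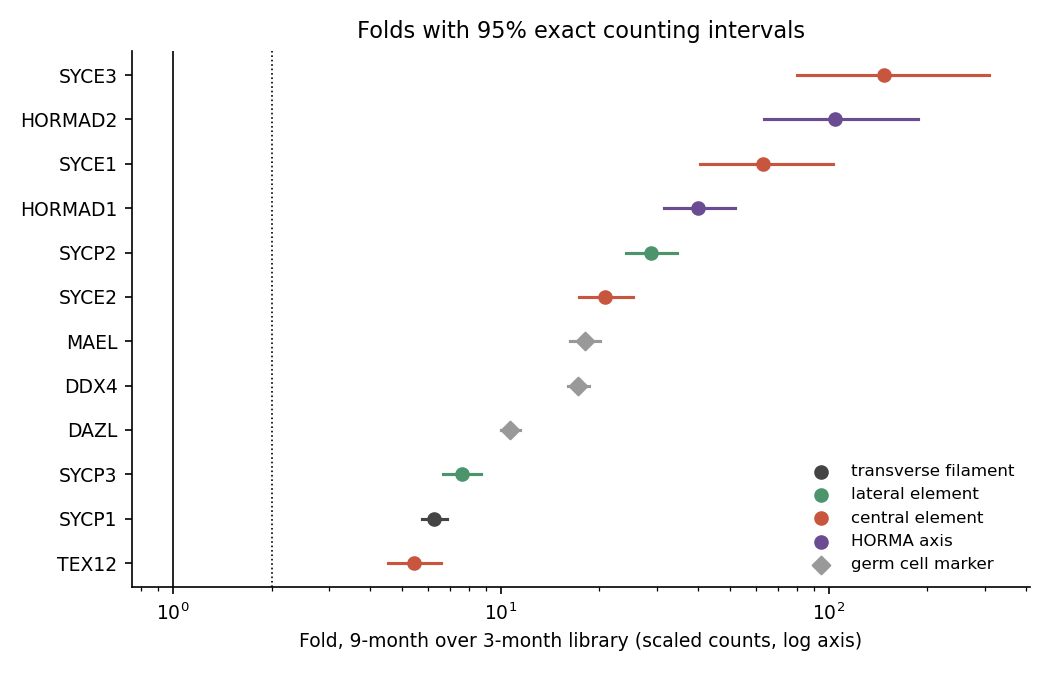
Points give the fold of each gene, 9-month over 3-month library, on a log axis, with bars for the 95% exact counting interval; solid and dotted lines mark 1 and 2. Colours mark the part of the complex, and grey diamonds are 3 general germ cell markers; SYCP3, SYCP1 and TEX12 lie below all 3 markers and the other 6 genes above them.

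Of the 36 pairs among the 9 genes, 32 had folds that differed beyond the counting interval and 4 did not. The 4 pairs were SYCE3 with HORMAD2, at a ratio of folds of 1.41 [0.590 to 3.51], HORMAD2 with SYCE1, at 1.67 [0.808 to 3.52], SYCE1 with HORMAD1, at 1.57 [0.937 to 2.74], and SYCP1 with TEX12, at 1.15 [0.935 to 1.41]. The widest ratio of folds, SYCE3 over TEX12, was 27.1 [14.2 to 58]. SYCE3, HORMAD2 and SYCE1 had 10 to 20 counts in the 3-month library, and their intervals are the widest.

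The levels of the 9 genes were spread more widely in the 3-month library than in the 9-month library. The highest was 16.8 times the lowest in the 3-month library and 4.77 times the lowest in the 9-month library. In the 3-month library SYCP3, SYCP1, TEX12 and SYCE2 lay between 3.15 and 5.64 RPKM. A gap of 3.30-fold [2.42 to 4.52] separated SYCE2 from HORMAD1, and below it came SYCP2, SYCE3, SYCE1 and HORMAD2, down to 0.336 RPKM. Within those 5 low genes no neighbours in the order differed beyond counting error, and the same held for SYCP3 with SYCP1 and for TEX12 with SYCE2. Between 15.5% and 48.0% of measured genes had a lower RPKM than each of the 9 genes in the 3-month library.

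In the 9-month library SYCE3 had the highest level per length, followed by SYCE2, SYCP3, HORMAD1, HORMAD2, SYCP1, SYCE1, TEX12 and SYCP2. All neighbours in this order differed beyond counting error except SYCP1 with SYCE1, at a ratio of 1.01 [0.952 to 1.08], and TEX12 with SYCP2, at 1.00 [0.928 to 1.08]. Each of the 9 genes exceeded between 75.2% and 96.0% of measured genes. Spearman rho between the levels in both libraries was 0.07 across the 9 genes, which are not replicates. The deposited length of SYCE3 is 395 bases, the shortest of the 9, and no correction for fragment length is given, so its rank per length is less certain than its fold.

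**Figure D3:**
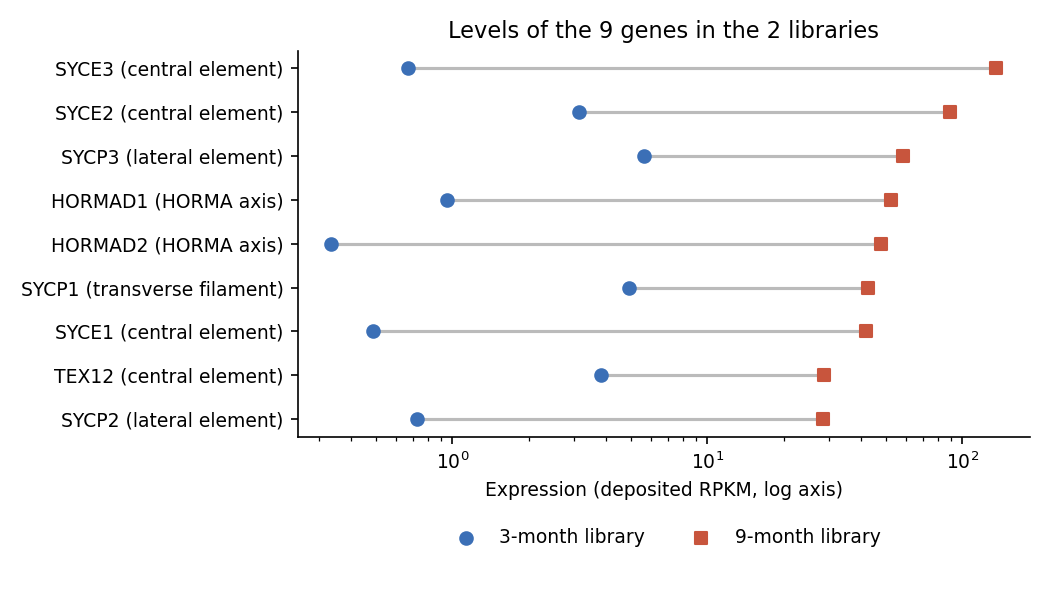
Blue circles give the level of each gene in the 3-month library and red squares in the 9-month library, as deposited RPKM on a log axis, 1 library per age. The blue circles spread from 0.336 to 5.64 RPKM and the red squares from 28.5 to 136 RPKM.

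The make-up of the summed RPKM differed between the libraries as well. SYCP3 and SYCP1 made up 27.2% and 23.8% of the sum of the 9 genes at 3 months, and 11.1% and 8.07% at 9 months. SYCE3 went from 3.25% to 25.8%, HORMAD2 from 1.62% to 9.15% and SYCE1 from 2.35% to 7.97%, while TEX12 went from 18.5% to 5.42%. By part of the complex, the central element held 39.2% and then 56.3% of the sum, the lateral elements 30.7% and 16.6%, and the HORMA genes 6.22% and 19.1%. With SYCE3 left out, the 3 other central element genes held 37.2% and 41.1% of the remaining sum, so that most of the difference in the central element share rested on SYCE3.

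**Figure D4:**
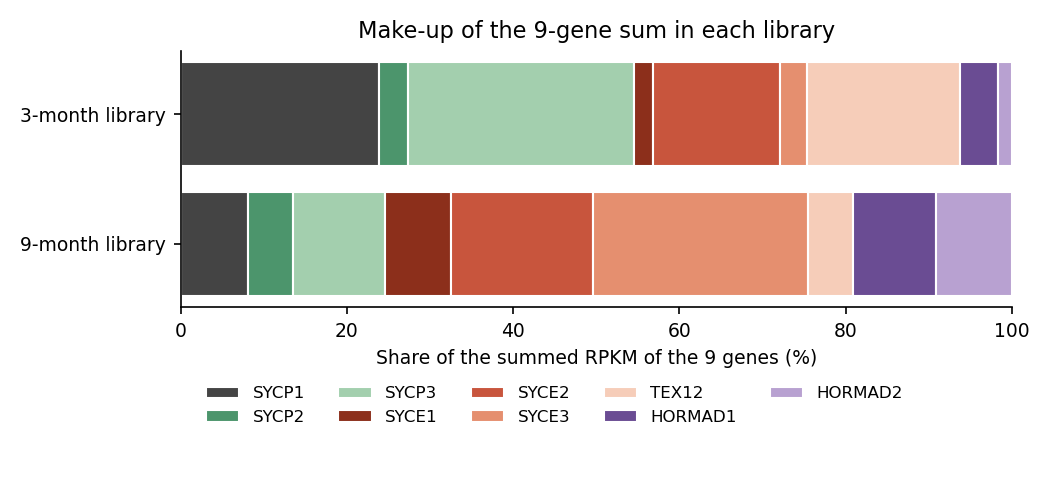
Bars show the share, in percent, that each of the 9 genes took of their summed RPKM in each library, 1 library per age. SYCP1, SYCP3 and TEX12 take smaller shares in the 9-month library, and SYCE3 goes from 3.25% to 25.8%.

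The 3 general germ cell markers were also higher in the 9-month library. DDX4, an RNA helicase of the germ line, was 17.2-fold higher [16 to 18.5], from 23.5 to 404 CPM. The fold of DAZL, which binds messenger RNA in germ cells, was 10.7 [9.99 to 11.4]. That of MAEL, which acts in the silencing of transposons, was 18.1 [16.3 to 20.1]. Measured against DDX4 within each library, 3 of the 9 genes were less abundant in the 9-month library. SYCP1 stood at 0.365 times its 3-month ratio to DDX4 [0.325 to 0.410], SYCP3 at 0.442 times [0.379 to 0.516] and TEX12 at 0.317 times [0.260 to 0.388]. SYCE2 stood at 1.21 times [0.991 to 1.49], an interval that includes 1. The other 5 genes were more abundant relative to DDX4, from 1.67 times for SYCP2 [1.38 to 2.04] through 2.33 for HORMAD1 [1.81 to 3.04], 3.66 for SYCE1 [2.34 to 6.04] and 6.10 for HORMAD2 [3.66 to 11] to 8.58 for SYCE3 [4.63 to 18.0]. Against DAZL and MAEL, SYCP1, SYCP3 and TEX12 again had ratios below 1 with intervals that excluded 1, and the 6 others had ratios above 1. The interval of SYCE2 excluded 1 against DAZL, at 1.95 [1.6 to 2.39], and included it against MAEL, at 1.15 [0.930 to 1.44].

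Other factors of synapsis and the axis were mostly higher too, with a smaller median ratio. Of 18 such genes listed, 15 were found in the tables under the listed names, of which 12 were called higher and 0 lower. Among all measured genes, 28.0% were called higher and 22.8% lower. The median log2 ratio of the 15 was 2.27, and 3 lay within 2-fold. SIX6OS1, listed as C14orf39, is the central element partner of SYCE1. It had 23 and 821 counts and was 32.9-fold higher [21.8 to 52.3]. The fold of SYCE1 was 1.91 times that of SIX6OS1 [0.995 to 3.69], an interval that includes 1. IHO1, listed as CCDC36, is recruited to axes by HORMAD1 for break formation and was 63.5-fold higher [44.6 to 93.6]. FKBP6, found at the synaptonemal complex, was 24.3-fold higher [22.0 to 27.0], and PSMA8, a proteasome subunit of spermatocytes, 20.6-fold higher [15.5 to 28.1]. TRIP13, the ATPase that removes HORMAD1 and HORMAD2 from paired axes, was already at 246 counts in the 3-month library and had 935 in the 9-month library, a 3.51-fold difference [3.04 to 4.05]. Per length HORMAD1 stood at 0.206 times TRIP13 in the 3-month library [0.155 to 0.270] and at 2.35 times in the 9-month library [2.18 to 2.53]. The 3 genes within 2-fold, named after their values were seen, were SKP1, SHOC1 (listed as C9orf84) and ATR, with folds of 0.592, 1.4 and 1.2.

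The genes that tie meiotic telomeres to the nuclear envelope followed the same direction. Of 6 listed genes 5 were found, and all 5 were higher, as were 28.0% of measured genes. Their median log2 ratio was 4.37. TERB1, listed as CCDC79, was 33.1-fold higher [25.4 to 44], and TERB2, listed as C10H15orf43, had 1 count against 450, giving a fold of 415 [74.2 to 16437].

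Cohesin rings hold sister chromatids together and form the base on which the axis is built. All 4 meiotic cohesin genes were higher, at a median log2 ratio of 4.60. Among all measured genes, 28.0% were called higher and 22.8% lower. STAG3 was 39.3-fold higher [35.6 to 43.6], RAD21L1 39.7-fold [25.2 to 66.2], SMC1B 16.4-fold [14.6 to 18.4] and REC8 4.67-fold [3.60 to 6.13]. The fold of SYCP3 was 0.193 times that of STAG3 [0.163 to 0.229], and 1.63 times that of REC8 [1.20 to 2.19]. The name of the mitotic cohesin list does not exclude roles in meiosis for its members, SMC3 included. Among the 5 genes of that list, 0 were called higher and 1, STAG2, was called lower. Their median log2 ratio was -0.51, or -0.05 with plain library totals, and that scaling left 0 lower. STAG2 had 3042 and 1281 counts, a fold of 0.389 [0.364 to 0.415], and SMC3 a fold of 0.747 [0.716 to 0.778]. Of 17 listed genes of meiotic recombination 16 were found and 14 were higher, beside 28.0% of measured genes. Their median log2 ratio was 2.73. The 2 others lay within 2-fold and were called higher when plain library totals or reference genes set the scale. Those scalings called 6529 and 6164 of the 18025 measured genes higher, against 5040 with TMM. MEIOB was 81.3-fold higher [53.0 to 132] and SPATA22, its partner on single-stranded DNA, 32.8-fold higher [26.8 to 40.5].

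Relatives of the 9 genes were either paralogs or other HORMA domain proteins, and 6 of 7 listed were found. All 6 had smaller folds than TEX12, the lowest of the 9 at 5.45 [4.54 to 6.58], but the interval of SYCE1L overlaps that of TEX12. Of these 6 genes, 3 were called higher, 1 lower and 2 within 2-fold. Among all measured genes, 28.0% were called higher and 22.8% lower. SYCP2L, a paralog of SYCP2, had 31 and 25 counts and a fold of 0.744 [0.421 to 1.30], an interval that includes 1. The fold of SYCP2 was 38.6 times that of SYCP2L [21.3 to 70.0]. SYCE1L, a paralog of SYCE1, had 48 and 251 counts and was 4.83-fold higher [3.53 to 6.72]. Per length SYCE1 stood at 0.289 times SYCE1L in the 3-month library [0.162 to 0.496] and at 3.76 times in the 9-month library [3.29 to 4.32]. The other HORMA domain proteins listed have roles outside meiosis, which does not exclude roles within it. MAD2L2, which acts in DNA repair, was 2.96-fold higher [2.53 to 3.47]. MAD2L1BP, which binds the spindle checkpoint protein MAD2, had 195 and 460 counts and was 2.18-fold higher [1.84 to 2.59]. ATG13 and ATG101, which start autophagy, had folds of 0.752 [0.710 to 0.797] and 0.468 [0.429 to 0.510]. ATG101 was called lower, but not with plain library totals or scaling to reference genes, where 0 of these 6 genes were lower. Those scalings called 2643 and 2924 of the 18025 measured genes lower, against 4110 with TMM.

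The median of the 9 genes lay between those of the spermatogonial and the spermatid gene lists. The median log2 ratio was 0.69 for 12 measured markers of undifferentiated spermatogonia and gonocytes and 0.80 for 7 genes listed for differentiating spermatogonia. The first list ran from -2.29 to 3.00 and the second from -1.57 to 5.79, so both ranges overlap that of the 9 genes. The second list included KITLG, the gene of the KIT ligand, at -0.60, named after its value was seen. KITLG is not a marker of the spermatogonia themselves, so the median of 0.80 is not one of spermatogonial markers alone. The median was 5.31 for 7 markers of late spermatocytes, 7.45 for 9 of round spermatids and 11.25 for 6 of elongating spermatids. NME8 of the late spermatocyte list and ODF1 of the elongating spermatid list had 0 counts in the 3-month library. With a floor of 3 counts they were at least 309-fold and at least 2756-fold higher, which leaves both medians as they are. The range of the 9 genes, from 2.43 to 6.95, reached from near the lowest late spermatocyte marker, at 2.28, to above the lowest round spermatid marker, at 5.25. MYBL1, a transcription factor of spermatocytes, was 4.99-fold higher [4.4 to 5.67], near the folds of SYCP1 and TEX12. PIWIL1, which binds small RNAs in spermatocytes and spermatids, was 346-fold higher [251 to 492], above all 9 genes.

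**Figure D5:**
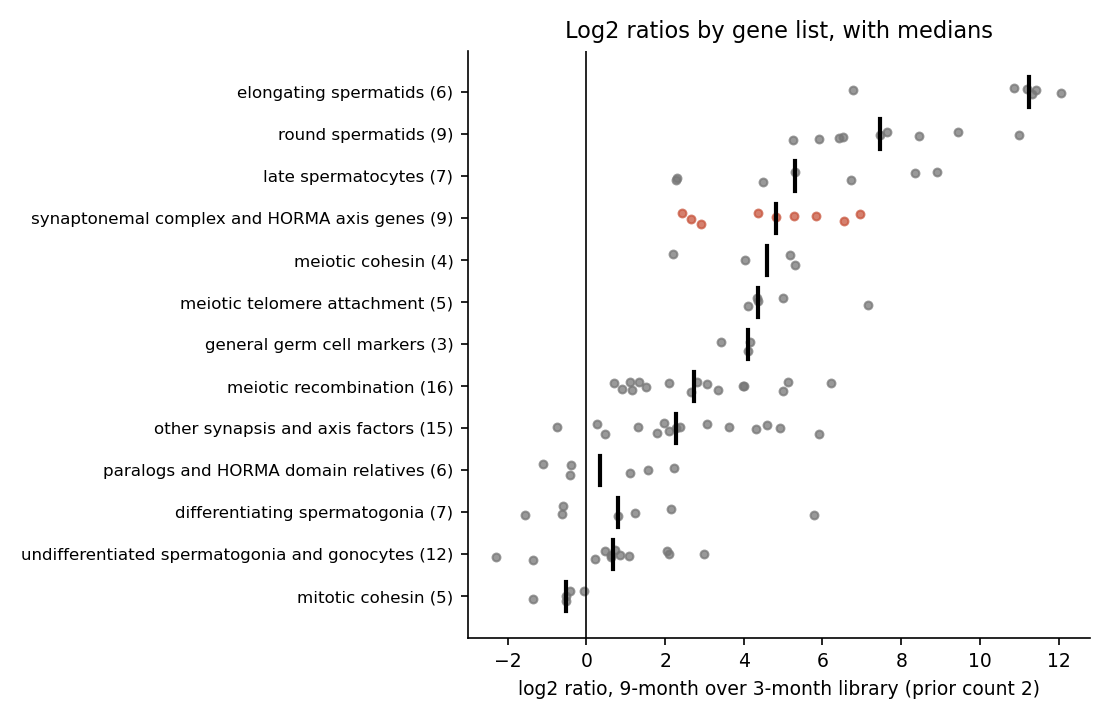
Each point is a measured gene, placed by its log2 ratio of the 9-month to the 3-month library (prior count of 2), with 1 row per list, its number of genes in parentheses and a black bar at the median. The 9 genes, in red, have a median of 4.82, between the meiotic cohesin genes at 4.60 and the late spermatocyte markers at 5.31; with plain library totals the median of the mitotic cohesin genes is -0.05.

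Some of the 9 genes overlap other genes in the RefSeq annotation of assembly ARS-UCD2.0, where all 9 symbols were matched, and the strand setting of the counting is not given. SYCP3 shares 437 bases with CHPT1, a gene of phospholipid synthesis, which had 696 and 1651 counts and was 2.19-fold higher [2.0 to 2.4]. SYCE2 shares 1082 bases with GCDH, a gene of lysine breakdown, which had 1241 and 687 counts and a fold of 0.511 [0.465 to 0.561]. Counts of the neighbour exceeded those of SYCP3 and of SYCE2 in the 3-month library, and the part of such reads in the 3-month values of SYCP3 and SYCE2 was not tested. SYCP1 overlaps TSPAN2 over 28452 bases, but TSPAN2 had only 12 and 11 counts, against 575 and 3912 for SYCP1. SYCP1 also overlaps LOC112446087, a small nuclear RNA gene, over 107 bases, and SYCE1 shares 4982 bases with TCERG1L. Neither of these 2 neighbours was found by symbol among the genes listed, so their counts are not known. The 5 other genes overlapped no gene of that annotation.

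The genes whose levels in both libraries came nearest to the median point of the 9 genes, by distance on the log2 CPM scale over the 2 libraries, were SLC25A31, DNAH3, DDX43, PTPN7 and FAM84A. SLC25A31, the nearest, had 111 and 2057 counts and was 17.1-fold higher [14.1 to 20.9]. The others had folds between 13.5 and 18.1.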

How the data were processed

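The submitters' processing notes name Trimmomatic 0.33, STAR 2.4.0 and genome build UMD3.1. The counting program, annotation release, strand setting, handling of multiply aligned reads and use of molecular identifiers: not given in the sources used here. The deposited tables hold the authors' raw counts per gene, the gene length in bases, and RPKM from the authors, which matched counts divided by length and by the table's own total within 0.000496%. Counts were scaled with edgeR 4.0.16 (R 4.3.3) by TMM, a trimmed mean of log ratios, over measured genes, with factors of 0.855 and 1.17. Log2 ratios carry a prior count of 2. Intervals were conditional binomial (Clopper-Pearson) for folds and conditional odds ratios for pairs of genes (scipy 1.17.1). They cover counting error only, since reads need not be independent molecules. No count test was possible with 1 library per age. Of several rows with 1 symbol, the one with most counts was used. The 9 genes and all lists were chosen with earlier results of these data known. By rule the text could name all 9 genes, DDX4, DAZL, MAEL, TRIP13, SYCP2L, SYCE1L, the cohesin genes, the 5 nearest genes, and from each other list at most 6 genes of 5 CPM or more, taken by size of log2 ratio. Overlaps come from RefSeq assembly ARS-UCD2.0, whose coordinates are not printed because the builds differ. The planned description of promoters and proteins was not made.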

Additional observations from a re-analysis of the deposited data

How the results depend on the processing

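All 9 genes were called higher with a minimum of 1 or 50 counts and under each of the 5 other scalings tried. Those minimums gave 5162 and 4415 higher genes among all genes that passed them. The scalings were plain library totals, upper quartile, RLE size factors, reference genes, and TMM over all listed genes. The last was chosen after the data were seen. Of the 18025 measured genes, TMM called 5040 higher, and these scalings between 4767 (upper quartile) and 6529 (plain totals). The 45 folds of the 9 genes under these scalings lay between 5.08 and 202, with 34 inside the counting interval of the fold reported and 11 outside it. The median log2 ratio of 4.82 became 5.27 under plain totals, 5.17 when scaled to reference genes and 5.30 from the deposited RPKM without a prior count, and lay between 4.72 and 4.84 under the other settings tried. The shift comes from the scaling factors. Folds relative to a germ cell marker, which no scaling enters, turned direction for 3 genes. They were 0.365, 0.588 and 0.348 for SYCP1 against DDX4, DAZL and MAEL, 0.442, 0.711 and 0.421 for SYCP3, and 0.317, 0.510 and 0.302 for TEX12; the cause was not tested. The other factors of synapsis kept 12 higher genes by count under every setting tried. No paired analysis was possible because each age had 1 library, and leaving out a library leaves no comparison. Depth limits SYCE3, HORMAD2 and SYCE1 most, with 10, 15 and 20 counts in the 3-month library.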
